A study of Mus musculus with 4 samples.

Results

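The mRNAs of 38 genes of tRNA charging were compared between the protrusions and the cell bodies of cultured YUMM1.7 melanoma cells. They are 35 aminoacyl-tRNA synthetase genes and 3 genes for scaffold proteins of the multi-synthetase complex, chosen by name out of the 16537 genes in the table, by a rule that uses no measured value. The choice was made with earlier results of these data known. YUMM1.7 is an established mouse melanoma line whose engineered changes include activated *Braf* and deactivated *Cdkn2a*, and its genotype is labelled wildtype in all samples. For fractionation the cells were left overnight on porous inserts that carried fibronectin on the lower face. There were 2 protrusion libraries, made from what remained in the cleaned membranes, and 2 cell body libraries, made from the scraped upper side, with 6 inserts for each replicate, labelled as biological replicates, and the same untreated line in both fractions.

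Aminoacyl-tRNA synthetases join each amino acid to its tRNA, which the ribosome then reads. Mammalian cells hold a cytosolic set and, encoded by other nuclear genes, a mitochondrial set whose proteins are imported. Of the cytosolic enzymes, some work alone and others are bound to each other and to scaffold proteins in the multi-synthetase complex. All are housekeeping enzymes, and many cytosolic ones are induced when amino acids run short.

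The members were described in 4 groups. There were 12 cytosolic enzyme genes outside the complex, 8 enzyme genes of the complex, 3 scaffold genes of the complex and 15 genes of mitochondrial enzymes. *Gars* and *Kars* were kept with the cytosolic enzymes, but each is known to encode the mitochondrial enzyme as well. The values are TPM, a length-scaled share of a library's transcripts with the same sum in every library, so every difference is one of shares of a fraction's RNA and not of molecules per cell. Less RNA per protrusion and fewer protrusions cannot be told apart in such values. All 38 genes passed the minimum of a mean of 1 TPM, as did 11400 genes in all.

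The libraries held 25854905 and 30994908 reads assigned to genes in protrusions replicates 1 and 2, and 29289505 and 25900795 in cell bodies replicates 1 and 2. No member had fewer than 191 reads in a library. Markers of the mesenchymal state of melanoma cells summed to 6420 to 6970 TPM in protrusions and to 6090 to 8890 TPM in cell bodies. Of 7 melanocyte markers only *Mitf*, *Pmel* and *Tyr* were in the table, and their sum lay between 5.52 and 6.56 TPM in the 4 libraries. Protrusions replicate 1 stood apart in mRNAs typical of hepatocytes, of which 19 of 20 were in the table and none was at 0 in every library. Their sum was 90.2 and 3.86 TPM in protrusions replicates 1 and 2, and 1.36 and 3.05 TPM in cell bodies replicates 1 and 2. No synthetase gene is on that list, and its part in the results was not tested. Values without that library are given for the members that passed either fit and for the group medians. Leukocyte, endothelial and keratinocyte markers each summed to between 0.0682 and 3.98 TPM in every library.

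In protrusions, *Vars* was higher than in cell bodies and *Eprs* was lower, and none of the other 36 mRNAs passed the test without the replicate block. Fold changes are differences of mean log2(TPM + 0.5) between protrusions and cell bodies, tested two-sided over all 11400 genes with limma. The threshold for a call was 0.05 after Benjamini-Hochberg adjustment. The 2 called members are 5.26% of the 38, against 7.25% of all tested genes called in either direction, a share near the background and no result about the family. The share called higher was 2.63% of members, against a background of 2.99%, and the share called lower 2.63%, against 4.25%. With the replicate number as a block, which takes the protrusion and cell body samples of a number as a pair, 7 members passed. These were *Vars*, higher, and *Eprs*, *Lars*, *Rars*, *Tars*, *Yars2* and *Iars2*, lower. Under the block 18.4% of members passed, against 21.4% of all genes, with 2.63% of members higher, against 8.08%, and 15.8% lower, against 13.3%. The total and the share lower were again near the background. An unadjusted p under 0.05 was reached by 10 members, while 31.3% of all genes reached it. Leaving out any 1 of the 4 libraries left a fraction with 1 library. Limma then called no member, but it also called few or no genes over the whole table. The loss of calls is thus not particular to the members. Without protrusions replicate 1 and without the block, the log2 fold changes of *Lars*, *Rars*, *Tars*, *Yars2* and *Iars2* were -0.81, -0.45, -0.50, -0.66 and -0.58 (limma, adjusted p of 0.0642 to 0.134).

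The median log2 fold change of the 38 mRNAs was -0.15, and that of all tested genes was -0.07. The values were negative for 29 members, or 76.3%, against 56.9% of all genes. In 17 members, or 44.7%, both protrusion libraries lay below both cell body libraries, and 37% of all genes did so. In 3 members, *Vars*, *Wars* and *Yars*, both protrusion libraries lay above both cell body libraries, which is 7.89% of members against 26.4% of all genes. The 95% confidence interval lay within a 2-fold difference for 35 members. The exceptions were *Vars*, *Eprs* and *Lars*. By group the median was 0.00 for cytosolic enzymes outside the complex, -0.36 for enzymes of the complex, -0.04 for its scaffold proteins and -0.21 for mitochondrial enzymes. The sign of the first and the third of these medians changed with the scaling of the libraries. The median of the enzymes of the complex was -0.41 when protrusions replicate 1 was left out, -0.49 when this was cell bodies replicate 1 and -0.15 when it was cell bodies replicate 2. For the mitochondrial enzymes the same omissions gave -0.33, -0.34 and -0.09. After a correction for GC content the median was -0.25 for the enzymes of the complex and -0.28 for the mitochondrial enzymes. The order of these groups was then reversed. Without protrusions replicate 1 the medians of the cytosolic enzymes outside the complex and of the scaffold genes were 0.00 and 0.01.

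**Figure D1:**
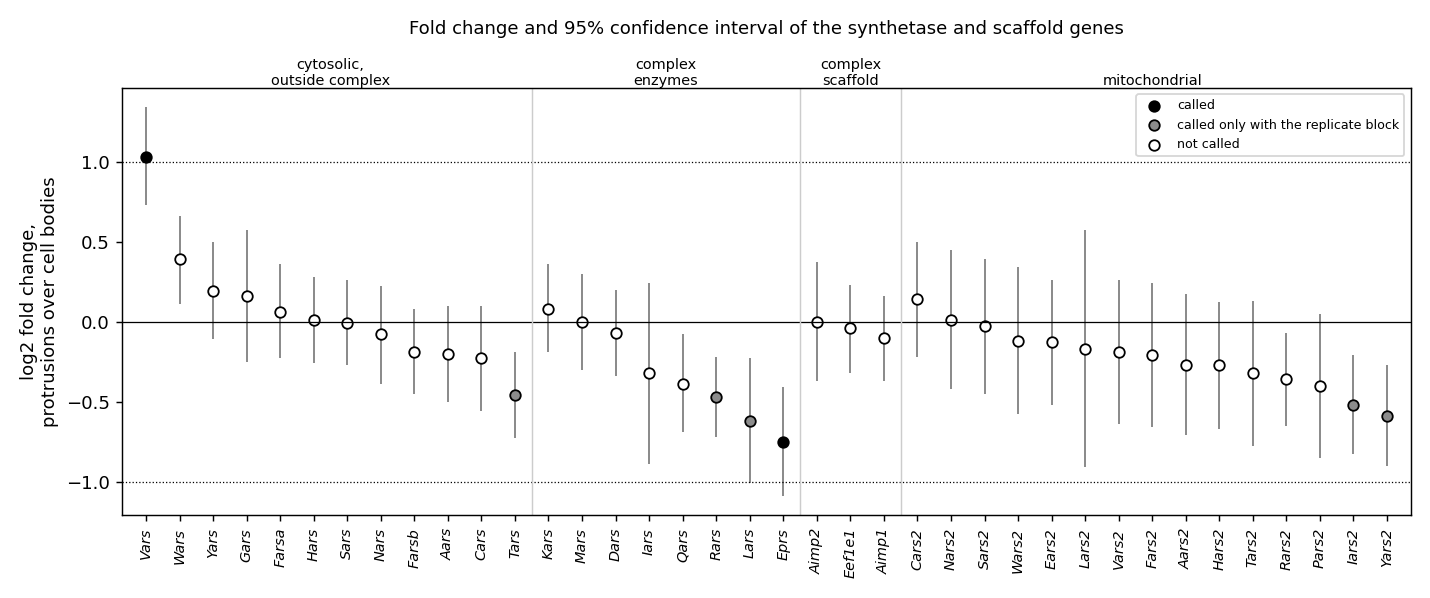
Fold change on the log2 scale, as protrusions over cell bodies, of the 38 genes (points) with 95% confidence intervals (bars), by group. Black points passed the test, gray points passed only with the replicate number as a block, white points passed neither, and dotted lines mark 2-fold differences. *Vars* lies at 1.03, apart from the other cytosolic enzymes, and the lowest point is *Eprs* at -0.75.

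*Vars*, which encodes the cytosolic valyl-tRNA synthetase, an enzyme bound to elongation factor 1, had 109.9 and 119.8 TPM in protrusions replicates 1 and 2, against 52.40 and 59.39 TPM in cell bodies replicates 1 and 2. Both protrusion libraries lay far above both cell body libraries. This is 2.05-fold, or 1.03 on the log2 scale (SE 0.12, 95% interval 0.73 to 1.34), with an adjusted p of 0.0342 (limma), or 0.000698 under the block. The value was higher than that of 99.2% of all tested genes, and 0.895% of them reached a log2 fold change of 1. By replicate number the log2 ratios were 1.06 and 1.01. The reads behind these values were 6266 and 8614 in protrusions and 3413 and 3253 in cell bodies. Among the 38 genes *Vars* was thirteenth by mean TPM in protrusions and twenty-second in cell bodies. Without any 1 library *Vars* was not called, and few or no genes of the whole table were. The log2 fold change of *Vars* then stayed between 0.94 and 1.12, with 1.1 when protrusions replicate 1 was left out.

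The study asks how 3′ UTR sequence rich in G and A bears on the localization of *Kif1c* mRNA, and *Net1* is another mRNA known to collect in protrusions. The 3′ UTR of *Vars* is short, at 67 bases, against a median of 1167 bases over the tested genes. To set it beside these mRNAs, the 30 bases with the most purines were taken from the 3′ UTR of each gene, in the longest coding transcript of the GENCODE annotation. They are shown for *Vars* and *Eprs*, the called members, and for *Kif1c* and *Net1*, with purines (A or G) in capitals.
Vars: GttccAtcAAcAGGGAtGGcAGcAAtAAAA
Eprs: AAAActtctAAAAAAGGtcAtGAGAtAAAA
Kif1c: cAGAAAGcAGAGAGcAAGAGAGAGGGAAGG
Net1: GGGAtAGGGAAGGGAAGGGAAGAGAAGAGA
These windows lie at chr17:35016284-35016313 (+) for *Vars*, chr1:185428244-185428273 (+) for *Eprs*, chr11:70728971-70729000 (+) for *Kif1c* and chr13:3883040-3883069 (-) for *Net1*, all of GRCm38. The *Vars* window has 19 purines of 30, and 96% of 10463 tested genes with a 3′ UTR of at least 30 bases have a window with as many. The *Eprs* window has 21, reached by 88.7% of genes, while that of *Kif1c* has 27, reached by 15.7%, and that of *Net1* has 29, reached by 5.9%. Among the 38 genes the median was 23 purines, against 24 over the tested genes, and longer 3′ UTRs hold more windows. The count describes the letters only. Across the members the Pearson r of log2 fold change with purines in the window was -0.09.

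*Vars* also had the highest GC content among the 38 transcripts, 60.9%, against a median of 50.8% for the members and 49.8% for the tested genes. Fold changes moved with GC content over all genes, with a Pearson r of 0.36 and a Spearman rho of 0.38 across 11321 genes. Over the 38 members r was 0.45 and rho 0.37, and over the 37 without *Vars* 0.33 and 0.32. Genes share the libraries and are not independent replicates, so these are descriptions. The 339 tested genes within 1 percentage point of the GC content of *Vars* had 0.23 as their median log2 fold change, and 2.36% of them were at or above *Vars*. After a loess correction of each library for GC content *Vars* remained higher, at 0.76 on the log2 scale (limma, adjusted p = 0.0418).

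**Figure D2:**
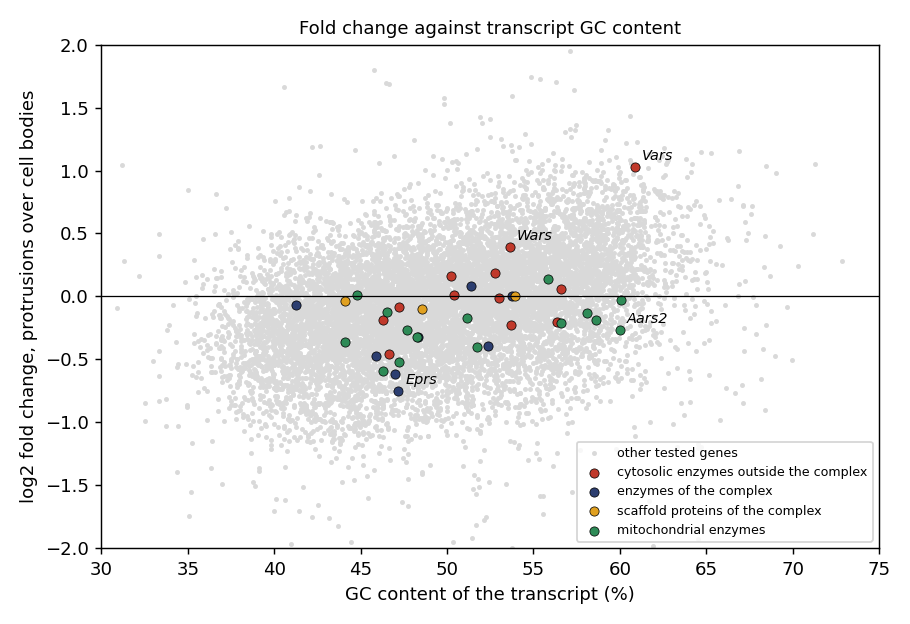
Fold change on the log2 scale, as protrusions over cell bodies (vertical axis), against transcript GC content in percent (horizontal axis) for the tested genes (gray) and the 38 genes by group (colored); 29 of 11321 genes lie outside the drawn range. *Vars* is at the upper right, at 60.9% GC and a log2 fold change of 1.03, while *Aars2*, at 60.0% GC, has a log2 fold change of -0.27.

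None of the other 11 cytosolic enzymes outside the complex was called, and *Tars* was lower with the block. The share lower with the block was 8.33% of this group, against 13.3% of all genes. *Tars*, which encodes threonyl-tRNA synthetase, had 153.0 and 144.8 TPM in protrusions, against 197.8 and 212.3 TPM in cell bodies. Its protrusion libraries both lay below the cell body libraries. On the log2 scale the difference was -0.46 (SE 0.11). The adjusted p was 0.0591 from limma and 0.0218 under the block. The GC correction with the block gave -0.30 and ended that call (limma, adjusted p = 0.127).

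*Wars*, which encodes tryptophanyl-tRNA synthetase, an interferon-induced enzyme, had 63.81 and 65.35 TPM in protrusions, against 49.96 and 48.66 TPM in cell bodies. The replicates of each fraction lay close together, and the fractions did not overlap. The log2 difference was 0.39 (SE 0.11), and neither fit called it (limma, adjusted p = 0.0848, or 0.0595 under the block). *Yars*, for the tyrosine enzyme, was at 69.3 ± 6.69 TPM in protrusions and 60.4 ± 0.194 TPM in cell bodies (SD, n = 2 each), with a 95% interval of its log2 fold change from -0.11 to 0.50.

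*Gars*, for glycyl-tRNA synthetase, had the highest mean of the members in protrusions, with 322.0 and 306.3 TPM, against 240.7 and 329.2 TPM in cell bodies. The cell body replicates lay on either side of the protrusion values. *Nars*, for the asparagine enzyme, had the highest mean in cell bodies, with 328.3 and 293.0 TPM in protrusions and 350.6 and 307.2 TPM in cell bodies. *Nars* was above *Gars* in protrusions replicate 1 and cell bodies replicate 1 and below it in the other libraries, so the order of these 2 genes was not settled in either fraction.

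*Farsa* and *Farsb* encode the alpha and beta chains of the cytosolic phenylalanyl-tRNA synthetase, which joins equal numbers of both. *Farsa* had a log2 fold change of 0.06 (95% interval -0.23 to 0.36) and *Farsb* of -0.19 (95% interval -0.45 to 0.08). The TPM of *Farsb* was 1.57 and 1.54 times that of *Farsa* in protrusions and 1.89 and 1.80 times in cell bodies. The ratio was thus lower in both protrusion libraries. The GC content is 56.6% for *Farsa* and 46.3% for *Farsb*. After the GC correction their log2 fold changes were -0.06 and -0.02, and the lower ratio was not kept.

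*Hars* and *Sars*, for the histidine and serine enzymes, had log2 fold changes of 0.01 and -0.01 and intervals of -0.26 to 0.28 and -0.27 to 0.26. *Nars*, *Aars* (alanine) and *Cars* (cysteine) had log2 fold changes of -0.08, -0.20 and -0.23, with adjusted p from 0.293 to 0.689 from limma. Of these 3, *Aars* and *Cars* had both protrusion libraries below both cell body libraries, at 136.1 and 117.4 TPM against 150.0 and 141.0 TPM for *Aars* and at 69.40 and 59.28 TPM against 71.33 and 79.37 TPM for *Cars*. *Aars* overlaps *Exosc6* on the same strand, so reads in the shared stretch are uncertain. *Cars*, *Farsa*, *Farsb*, *Wars*, *Iars*, *Fars2* and *Wars2* also overlap annotated genes on the same strand. Several members, *Hars* and *Hars2* among them, overlap genes on the opposite strand. The sources used here do not give whether the counting used strand. Replicate 2 set most of the difference in *Cars*, with log2 ratios of -0.04 and -0.42 by replicate number.

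**Figure D3:**
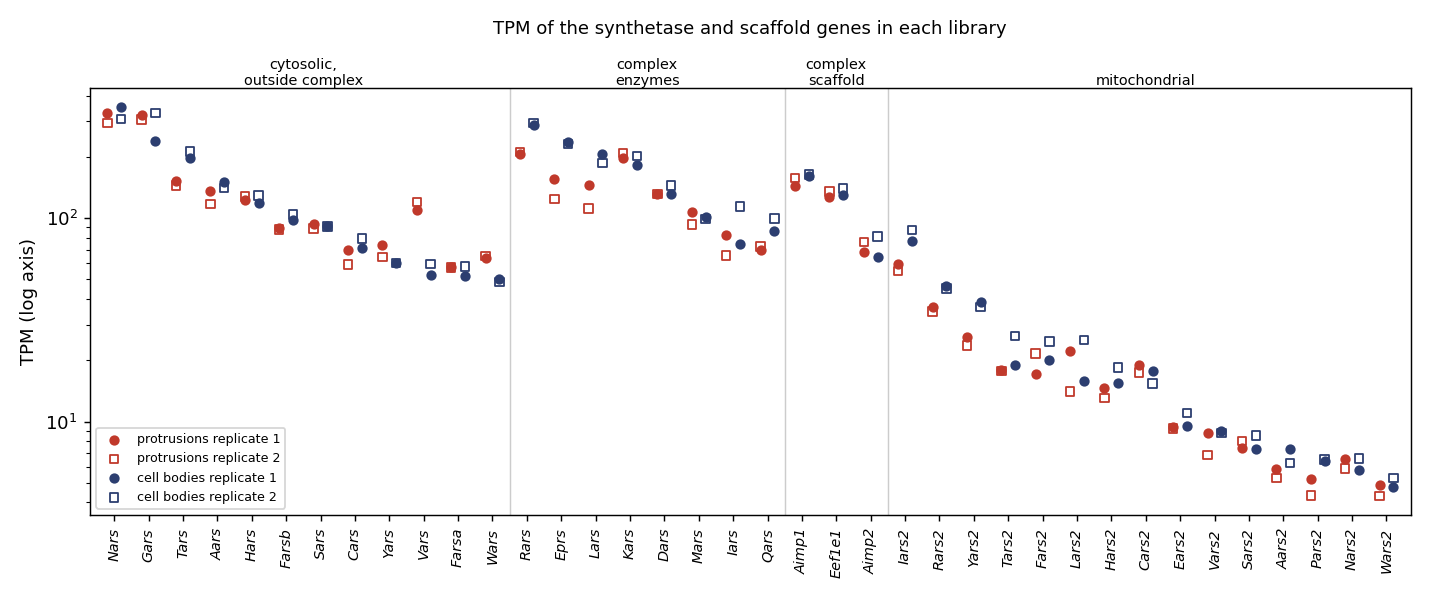
TPM of each gene (log axis) in the 2 protrusion libraries (red) and the 2 cell body libraries (blue), with filled circles for replicate 1 and open squares for replicate 2, by group and in order of the mean in cell bodies. The red points of *Vars* stand at 109.9 and 119.8 TPM, above the blue ones, and the genes of mitochondrial enzymes lie below nearly all others.

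Among the 8 enzyme genes of the complex, *Eprs* was lower in protrusions, and *Lars* and *Rars* passed as lower with the block. The share lower was 12.5% of the 8, against 4.25% of all genes, and 37.5% with the block, against 13.3%. These shares rest on few genes and were not tested. *Eprs* encodes the bifunctional glutamyl-prolyl-tRNA synthetase, the longest coding sequence of the family at 4539 bases, on chromosome 1 from 185363044 to 185428360. It had 155.0 and 124.2 TPM in protrusions, against 236.3 and 231.9 TPM in cell bodies. The 2 protrusion libraries differed from each other more than the 2 cell body libraries, and both lay well below them. This is 1.68-fold lower, or -0.75 on the log2 scale (SE 0.14, 95% interval -1.09 to -0.41), with an adjusted p of 0.0417 (limma), or 0.00274 under the block. By replicate number the log2 ratios were -0.61 and -0.90. The GC correction gave -0.60 and ended the call (limma, adjusted p = 0.0521), and with the block added the adjusted p was 0.0125. Without any 1 library *Eprs* was not called, and few or no genes of the whole table were. The log2 fold change of *Eprs* was then -0.91 to -0.59, with -0.91 when protrusions replicate 1 was left out.

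*Lars*, for the leucine enzyme, which also acts as a leucine sensor upstream of mTORC1, had 146.4 and 111.8 TPM in protrusions, against 207.8 and 186.9 TPM in cell bodies. The groups did not overlap. The log2 difference was -0.62 (SE 0.16), at an adjusted p of 0.0683 (limma), or 0.00623 under the block. *Rars*, for the arginine enzyme, was the most abundant mRNA of the complex in all 4 libraries, with 207.1 and 212.2 TPM in protrusions, against 287.5 and 294.3 TPM in cell bodies. Its replicates were the closest of the 3, with a log2 ratio of -0.47 in both replicates. With an SE of 0.10 it lay just short of the threshold without the block (limma, adjusted p = 0.0505) and past it with the block (0.0165). With the GC correction and the block it was at -0.30 and did not pass (limma, adjusted p = 0.154).

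*Qars*, for the glutamine enzyme, had 69.41 and 72.41 TPM in protrusions, against 86.67 and 99.45 TPM in cell bodies. It did not pass in either fit, at -0.39 on the log2 scale (limma, adjusted p = 0.0523 under the block). *Iars*, for the isoleucine enzyme, had 83.13 and 65.70 TPM in protrusions, against 74.97 and 114.4 TPM in cell bodies. Its replicates went opposite ways, with log2 ratios of 0.15 and -0.80.

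The remaining enzymes of the complex were close to even between the fractions. *Kars*, for the lysine enzyme, had 197.4 and 209.6 TPM in protrusions, against 182.9 and 202.0 TPM in cell bodies. Its 95% interval was -0.19 to 0.36. *Dars*, for the aspartate enzyme, and *Mars*, for the methionine enzyme, had intervals of -0.34 to 0.20 and -0.30 to 0.30. Within the complex the spread was thus from -0.75 for *Eprs* to 0.08 for *Kars*. The TPM of *Eprs* was 0.785 and 0.593 times that of *Kars* in protrusions and 1.29 and 1.15 times in cell bodies. The order of these 2 mRNAs differed between the fractions in both replicates. They were picked as the ends of that spread, so a ratio that differs between the fractions follows from the choice.

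None of the 3 scaffold genes was called in either fit, against 7.25% of all genes without the block and 21.4% with it. *Aimp1*, whose product binds the arginine and glutamine enzymes and is also the precursor of a cytokine, had 144.3 and 157.8 TPM in protrusions, against 160.4 and 164.3 TPM in cell bodies. *Aimp2*, for the central scaffold that holds the complex together, had 68.53 and 76.57 TPM in protrusions, against 64.74 and 81.16 TPM in cell bodies. *Eef1e1*, for the smallest of the scaffold proteins, had 126.4 and 135.5 TPM in protrusions, against 129.9 and 139.8 TPM in cell bodies. The fractions overlapped in *Aimp2* and *Eef1e1*, while both protrusion values of *Aimp1* lay below both cell body values. The intervals of the 3 log2 fold changes were -0.37 to 0.16, -0.37 to 0.37 and -0.32 to 0.23, and each excludes a 2-fold difference.

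The mRNAs of the complex were present at unequal levels. The most abundant of its 11 mRNAs was 3.02 and 3.23 times the least abundant in protrusions and 4.44 and 3.63 times in cell bodies. The least abundant was *Iars* in protrusions replicate 2 and *Aimp2* in the other libraries. Summed over the 11 genes the complex had 1437 and 1390 TPM in protrusions, against 1664 and 1758 TPM in cell bodies. Both protrusion sums were lower. The 12 cytosolic enzymes outside the complex summed to 1620 and 1533 TPM in protrusions, against 1535 and 1620 TPM in cell bodies, and these ranges overlapped.

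The enzymes of the complex also differ from the others in their transcripts. Their median coding length was 2530.5 bases, against 1732.5 for cytosolic enzymes outside the complex and 1557 for mitochondrial enzymes, and their median GC content was 47.7%, against 52.9% and 51.2%. Across the 8 genes the Pearson r of log2 coding length with log2 fold change was -0.67 and the Spearman rho -0.60. The other groups did not share this, with 0.3 and -0.25 across the 12 cytosolic enzymes outside the complex. For the 15 mitochondrial enzymes r was -0.05 and rho 0.04. A part of coding length in the fold changes was not tested. Across all 38 genes these were -0.13 and -0.27, across the 37 without *Vars* -0.40 and -0.37, and across 10551 tested genes -0.12 and -0.13.

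Of the 15 genes of mitochondrial enzymes none was called without the block (limma), against 7.25% of all tested genes. An unadjusted p under 0.05 (limma) was reached by 3 of the 15 and by 31.3% of all genes. *Yars2* and *Iars2* were lower with the block, which is 13.3% of the 15, against 13.3% of all genes. *Yars2*, for the mitochondrial tyrosine enzyme, had 26.05 and 23.61 TPM in protrusions, against 38.57 and 36.55 TPM in cell bodies. The fractions were clearly apart. The log2 difference was -0.59 (SE 0.13), at an adjusted p of 0.0514 (limma), or 0.0162 under the block.

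*Iars2*, for the mitochondrial isoleucine enzyme, had 59.67 and 54.86 TPM in protrusions, against 76.94 and 87.67 TPM in cell bodies. The fractions did not overlap. It was the most abundant mitochondrial member in every library, with 22.9% and 22.8% of their summed TPM in protrusions and 25.6% and 26.4% in cell bodies. The log2 difference was -0.52 (SE 0.13), at an adjusted p of 0.0633 (limma), or 0.0210 under the block. After the GC correction with the block *Yars2* passed (limma, adjusted p = 0.0375) and *Iars2* did not (0.0569), while *Aars2* passed there and in no other fit.

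*Rars2*, for the mitochondrial arginine enzyme, had 36.43 and 34.79 TPM in protrusions, against 46.47 and 45.11 TPM in cell bodies. The fractions did not overlap, but at -0.36 on the log2 scale (SE 0.12) neither fit called it (limma, adjusted p = 0.107, or 0.0882 under the block). *Pars2* (proline), *Tars2* (threonine), *Hars2* (histidine) and *Aars2* (alanine) had log2 fold changes of -0.40, -0.32, -0.27 and -0.27, with adjusted p of 0.199 to 0.350 from limma. In each of these 4, both protrusion libraries lay below both cell body libraries. *Fars2* (phenylalanine), *Vars2* (valine), *Ears2* (glutamate) and *Wars2* (tryptophan) had log2 fold changes of -0.21, -0.19, -0.13 and -0.12.

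*Lars2*, for the mitochondrial leucine enzyme, varied most between replicates. It had 22.26 and 14.03 TPM in protrusions, against 15.81 and 25.24 TPM in cell bodies. The log2 ratios by replicate number were 0.48 and -0.83, of opposite sign, and its 95% interval of -0.91 to 0.57 was the widest of the family. *Sars2* (serine), *Nars2* (asparagine) and *Cars2* (cysteine) had log2 fold changes of -0.03, 0.01 and 0.14, with intervals that all contained 0. The 15 genes summed to 261.1 and 241.1 TPM in protrusions, against 300.0 and 332.5 TPM in cell bodies, so both protrusion sums were lower.

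The cytosolic mRNAs were the more abundant set in both fractions. The 20 cytosolic enzyme genes together had 10.4 and 10.6 times the TPM of the 15 mitochondrial ones in protrusions and 9.48 and 9.0 times in cell bodies. Single cytosolic enzymes had 57.3 to 328 TPM in protrusions and 48.7 to 351 TPM in cell bodies, and single mitochondrial enzymes 4.31 to 59.7 TPM in protrusions and 4.79 to 87.7 TPM in cell bodies. The sets met only at *Iars2*, which exceeded *Farsa* in protrusions replicate 1 and several cytosolic enzymes in cell bodies.

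For the same amino acid, the cytosolic gene was above the mitochondrial gene in all 4 libraries in 15 of 16 pairs. The highest ratio was that of *Nars* over *Nars2*, 50.1 and 49.8 in protrusions and 61.0 and 46.7 in cell bodies. The lowest was that of *Iars* over *Iars2*, 1.39 and 1.20 in protrusions and 0.974 and 1.31 in cell bodies, the pair that fell below 1 in a library. The ratio of *Vars* over *Vars2* was 12.5 and 17.5 in protrusions, against 5.81 and 6.76 in cell bodies, and did not overlap. That of *Yars* over *Yars2* was 2.84 and 2.73 in protrusions, against 1.57 and 1.65 in cell bodies. That of *Eprs*, which serves both amino acids, was 16.6 and 13.4 over *Ears2* in protrusions, against 24.9 and 21.1 in cell bodies. The pairs of *Vars*, *Yars* and *Eprs* each hold a member that passed a fit, so their shifts are no separate result. Other pairs did not overlap either. Among them *Wars* over *Wars2* and *Hars* over *Hars2* were higher in protrusions, and *Rars* over *Rars2* and *Cars* over *Cars2* lower. With 2 libraries a fraction an exact permutation test of a ratio cannot reach a p of 0.05, so none is given. In 9 of the 16 pairs both genes had a negative log2 fold change.

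**Figure D4:**
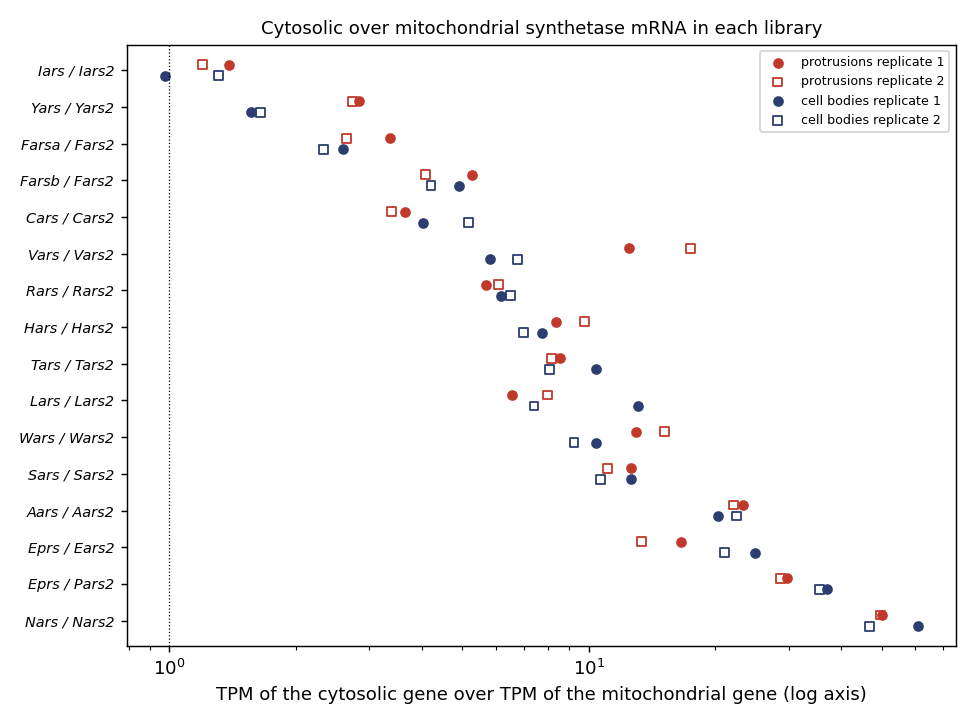
TPM of the cytosolic gene over TPM of the mitochondrial gene for the same amino acid (log axis) in the 2 protrusion libraries (red) and the 2 cell body libraries (blue), with filled circles for replicate 1 and open squares for replicate 2. The dotted line marks equal TPM. The red points of *Vars* over *Vars2*, at 12.5 and 17.5, lie to the right of the blue ones at 5.81 and 6.76, and only *Iars* over *Iars2* touches the line.

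Other genes of tRNA charging and maturation were counted from a list of 49 names, of which 46 were in the table and tested. In protrusions 1 was higher and 2 were lower, and the median log2 fold change was 0.03. With the block 5 were higher and 4 lower. The shares called, 6.52% and 19.6% with the block, were near the 7.25% and 21.4% of all tested genes. *Tsfm*, for a mitochondrial elongation factor, had 47.3 and 51.0 TPM in protrusions, against 33.2 and 32.1 TPM in cell bodies, or 0.58 on the log2 scale (SE 0.12, adjusted p = 0.0478, limma). The lower genes modify tRNA. *Trmt10c*, for a subunit of the mitochondrial RNase P, had 40.0 and 40.9 TPM in protrusions, against 62.5 and 66.6 TPM in cell bodies, or -0.67 on the log2 scale (SE 0.11, adjusted p = 0.0392, limma). *Trmt5*, a tRNA methyltransferase gene, had 20.2 and 19.2 TPM in protrusions, against 32.1 and 31.9 TPM in cell bodies, or -0.69 on the log2 scale (SE 0.12, adjusted p = 0.0401, limma). *Mars2*, a mitochondrial synthetase gene that is not among the 15, had a log2 fold change of -0.12 and was not called.

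*Vars* protein binds the elongation factor 1 complex, which delivers charged tRNA to the ribosome, so the factor's mRNAs are given beside it. Of 5 cytosolic elongation factor mRNAs 4 are also on that list. None of the 5 was called (limma, without the block), and *Eef1g* and *Eef1b2* were higher with the block (limma, adjusted p of 0.0126 and 0.0370). That is 40% of the 5, against 8.08% of all genes, a share that rests on few genes and was not tested. *Eef1g* had 1680 and 1800 TPM in protrusions, against 1130 and 1280 TPM in cell bodies, and *Eef1b2* had 785 and 838 TPM, against 604 and 629 TPM. *Eef1d* was even, with 181 and 194 TPM in protrusions, against 167 and 202 TPM in cell bodies, or 0.03 on the log2 scale. *Eef1a1* had 13500 and 14000 TPM, against 10900 and 12100 TPM, or 0.26 on the log2 scale. Neither *Eef1d* nor *Eef1a1* was called in either fit. The median log2 fold change of the 5 was 0.34. That of 80 cytosolic ribosomal protein mRNAs was 0.29, with 7, or 8.75%, higher and none lower, and that of 77 mitochondrial ribosomal protein mRNAs was 0.03, with 1, *Mrpl43*, or 1.3%, higher and none lower, against 2.99% of all tested genes called higher. The medians of the enzymes of the complex, -0.36 (-0.15 without cell bodies replicate 2), and of the mitochondrial enzymes, -0.21 (-0.09 without it), lay below these. The difference between the families was not tested.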

How the data were processed

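RNA-seq of protrusions and cell bodies was analysed in 4 libraries, grouped and numbered by the submitters' labels. The authors deposited 1 table of TPM per library, with the mean log2 CPM over the 4 libraries. The log2 fold change, likelihood ratio, p-value and FDR of the authors' own contrast stand beside them and were not used. The paper's methods give TopHat as the aligner of the strand-specific single reads to mm10, while the submitters' notes list STAR and featureCounts, and both name edgeR.

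Each gene's TPM ratios gave whole reads within 0.01 for all 16537 genes, up to a constant set by the mean log2 CPM, and these give the depth and a voom alternative. The authors' counts themselves were not used here, so TPM was tested, with limma 3.58.1 (R 4.3.3) on log2(TPM + 0.5), with a trend in the prior variance and a minimum mean of 1 TPM, over 11400 genes. The fit has 2 residual degrees of freedom, or 1 with the block. Limma adds prior degrees of freedom drawn from all tested genes, 3.81 without the block and 10.2 with it. The p-values thus rest on the spread between 2 replicates and on that of other genes, the more so with the block. Of the members called with the block, the SE was larger there for *Tars*, *Vars*, *Rars*, *Iars2* and *Yars2* and smaller for *Eprs* and *Lars*. The alternatives were other pseudocounts and minimums, libraries left out, scalings, voom, no trend, GC correction and the replicate block. The study heads the samples of a replicate as paired, and same-numbered deviations correlated at 0.45, so the block was taken as a pairing. The fit without the block was tested on simulated reads that held no replicate effect and no GC trend. The alternatives were not tested in this way.

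GC content, lengths, positions and sequences came from GENCODE M21 (GRCm38), which matched 99.0% of genes and all 38 members. Every member is named, with values per library for those called in either fit and those with the smallest p of a group. The members and lists were chosen with earlier results of these data known. Of the partner list *Gatb* and *Prorp*, the second listed also by its other name *Mrpp3*, were not matched and not analysed here. Some items are not reported here.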

Additional observations from a re-analysis of the deposited data

How the results depend on the processing

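The number of calls depended strongly on the fit, and the cause was not tested. Over all tested genes limma called 341 higher and 485 lower. The counts were 921 and 1513 with the replicate block, 775 and 889 by voom on the recovered reads, 1832 and 2052 by voom with the block, 1249 higher and 1444 lower with the GC correction and the block, and 207 and 1099 when scaled to *Ppia* and *Ywhaz*. A minimum of 5 TPM gave 801 lower. No minimum, and no trend in the prior variance, each gave 0 and 0, with 3630 and 3416 genes at an unadjusted p under 0.05. Leaving out 1 library gave 0 to 14 higher and 0 to 144 lower. Only without protrusions replicate 1 was any gene called, and the other omissions left 1899 to 3157 genes at an unadjusted p under 0.05.

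Of the 38 genes 1 was called higher, 2 by voom with the block (*Vars* and *Wars*), and 0 without a minimum, without a trend or without any 1 library. In turn 1 was called lower, which became 6 with the block, with a minimum of 5 TPM and by voom with the block, 7 when scaled to *Ppia* and *Ywhaz*, 4 with the GC correction and the block, 2 with a pseudocount of 1 or by voom, and 0 with the GC correction alone, without a minimum, without a trend or without any 1 library. The replicate block added *Tars*, *Lars*, *Rars*, *Iars2* and *Yars2* and changed no other call among the members. The partner genes called, 3, became 9 with the block, 5 with a minimum of 5 TPM, 10 by voom with the block, 6 and 1 with the GC correction with and without the block, and 0 without a minimum, without a trend or without any 1 library. The mitochondrial ribosomal protein genes called, 1, became 3 with the block, 5 by voom with the block, 7 with the GC correction and the block, and 0 in the same cases as before. The 7 cytosolic ones became 16 with the block, 27 by voom with the block, 4 with the GC correction, 2 with median centring or scaling to *Ppia* and *Ywhaz*, and 0 in those same cases. Elongation factor genes called, 0, became 2 with the block or by voom with the block and 1 with a minimum of 5 TPM, by voom or with the GC correction and the block.

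Scaling to *Ppia* and *Ywhaz* put the median of all genes at -0.205, against -0.067. The median of the cytosolic enzymes outside the complex, 0.00, was 0.08 with median centring, -0.13 when so scaled and 0.06 by voom with or without the block. That of the scaffold genes, -0.04, was 0.04, -0.18 and 0.02 in these fits, 0.01 with the GC correction with or without the block, and -0.12 to 0.01 without 1 library. No called member reversed in the 16 alternatives. Reversals were at -0.07 (*Farsa*), -0.13 (*Hars*), -0.06 (*Kars*) and -0.13 (*Nars2*) when scaled to *Ppia* and *Ywhaz*. With median centring they were at 0.07 (*Sars*), 0.01 (*Dars*), 0.08 (*Mars*), 0.08 (*Aimp2*), 0.04 (*Eef1e1*) and 0.05 (*Sars2*). By voom, with or without the block, they were at 0.06 (*Sars*), 0.06 (*Mars*), 0.06 (*Aimp2*), 0.02 (*Eef1e1*) and 0.04 or, with the block, 0.03 (*Sars2*). With the GC correction, with or without the block, they were at -0.06 (*Farsa*), 0.07 (*Nars*), 0.22 (*Dars*), 0.01 (*Aimp1*), 0.17 (*Eef1e1*) and 0.05 (*Wars2*). Without 1 library the ranges were -0.02 to 0.14 for *Farsa*, -0.07 to 0.38 for *Gars*, -0.04 to 0.07 for *Hars*, -0.18 to 0.01 for *Nars*, -0.04 to 0.03 for *Sars*, -0.10 to 0.10 for *Mars*, -0.16 to 0.16 for *Aimp2*, -0.09 to 0.01 for *Eef1e1*, -0.50 to 0.16 for *Lars2*, -0.08 to 0.10 for *Nars2* and -0.14 to 0.07 for *Sars2*. With 2 libraries a fraction small differences were not detectable.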
